A study of Rattus norvegicus with 32 samples.

Results

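Tp63, Klf4, Prdm1, Grhl2, Elf3 and Tfap2b encode transcription factors of stratified epithelia, the layered epithelia of skin, hair follicle and related surfaces. They were taken as the probe sets annotated to 1 of these symbols alone, which gave 7 probe sets for the 6 genes, among 15316 such probe sets for 14511 genes. Klf4 had 2 probe sets (10873814 and 10876838) and every other gene had 1.

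The values came from 16 cultures of rat epithelial cells, each measured on 2 Affymetrix arrays. All cells were from Sprague-Dawley rats that carry an actin-promoter transgene for enhanced green fluorescent protein, and all were grown on irradiated 3T3-J2 mouse fibroblasts, a feeder layer. Thymic epithelial cells, abbreviated TEC, form the stroma in which T cells mature, and they gave 4 ungrafted cultures, 4 recovered after a first transplantation into skin on nude mice and 4 after a second. The ungrafted TEC cultures were 1 clone from an embryonic day 16 (E16) donor, 1 clone from a postnatal day 1 (P1) donor, and a bulk culture and a clone from donors aged 4 months. Each grafted TEC group held 2 cultures of E16 origin, 1 of P1 origin and 1 of 4-month origin, and the 4-month ones are labelled bulk. Hair follicle (HF) cells, all labelled P5 with no further explanation, gave 1 bulk and 1 clonal culture both before and after 1 transplantation. Since P5 appears on none of the thymic cultures, tissue and donor stage cannot be told apart. The labels do not say that cultures came from separate animals, so the p-values measure the spread between these cultures, part of which may be technical.

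As background, Tp63 encodes p63, which maintains the basal progenitor layer of stratified epithelia, and Klf4 acts in the suprabasal layers, where it is needed for the skin barrier. Prdm1 encodes Blimp1, a repressor linked to terminal differentiation, and in skin to the granular layer and sebaceous gland. Grhl2, a grainyhead-like factor, maintains epithelial junction genes such as Cdh1. Elf3 is an epithelium-specific ETS factor, and Tfap2b an AP-2 factor of the surface ectoderm and neural crest.

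Across all cultures Krt14, the keratin of basal keratinocytes, lay between 12.95 and 13.35 on the log2 scale. The mean log2 signal stayed between 3.84 and 4.26 for 11 haematopoietic markers, between 3.96 and 4.65 for 5 melanocyte markers and between 3.83 and 4.25 for 4 endothelial markers. Signals near 4 were not taken as above background. Among the haematopoietic markers Cd68, a lysosomal protein of macrophages, ranged from 5.17 to 8.78 and was highest in the second-graft culture Clone_347, and Cd79b lay between 5.06 and 5.60. Ptprc, which encodes the pan-leukocyte protein CD45, was at most 3.88. Krt8, a keratin of simple epithelia and thymic epithelium, separated the tissues before grafting, at a mean of 11.27 in TEC and 6.89 in HF (probe set 10751352, limma adjusted p = 0.0070). One HF culture, the ungrafted bulk culture YR219P5_Bulk_V, stood apart in several of the 6 genes. The grafted bulk HF culture YR219P5_RC held the highest value of the 16 cultures at 30.8% of all probe sets, and 1 of its arrays had the highest median signal of all arrays (5.78, against at most 5.55 on the others). Results that involve these cultures are given with that in view.

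**Figure D1:**
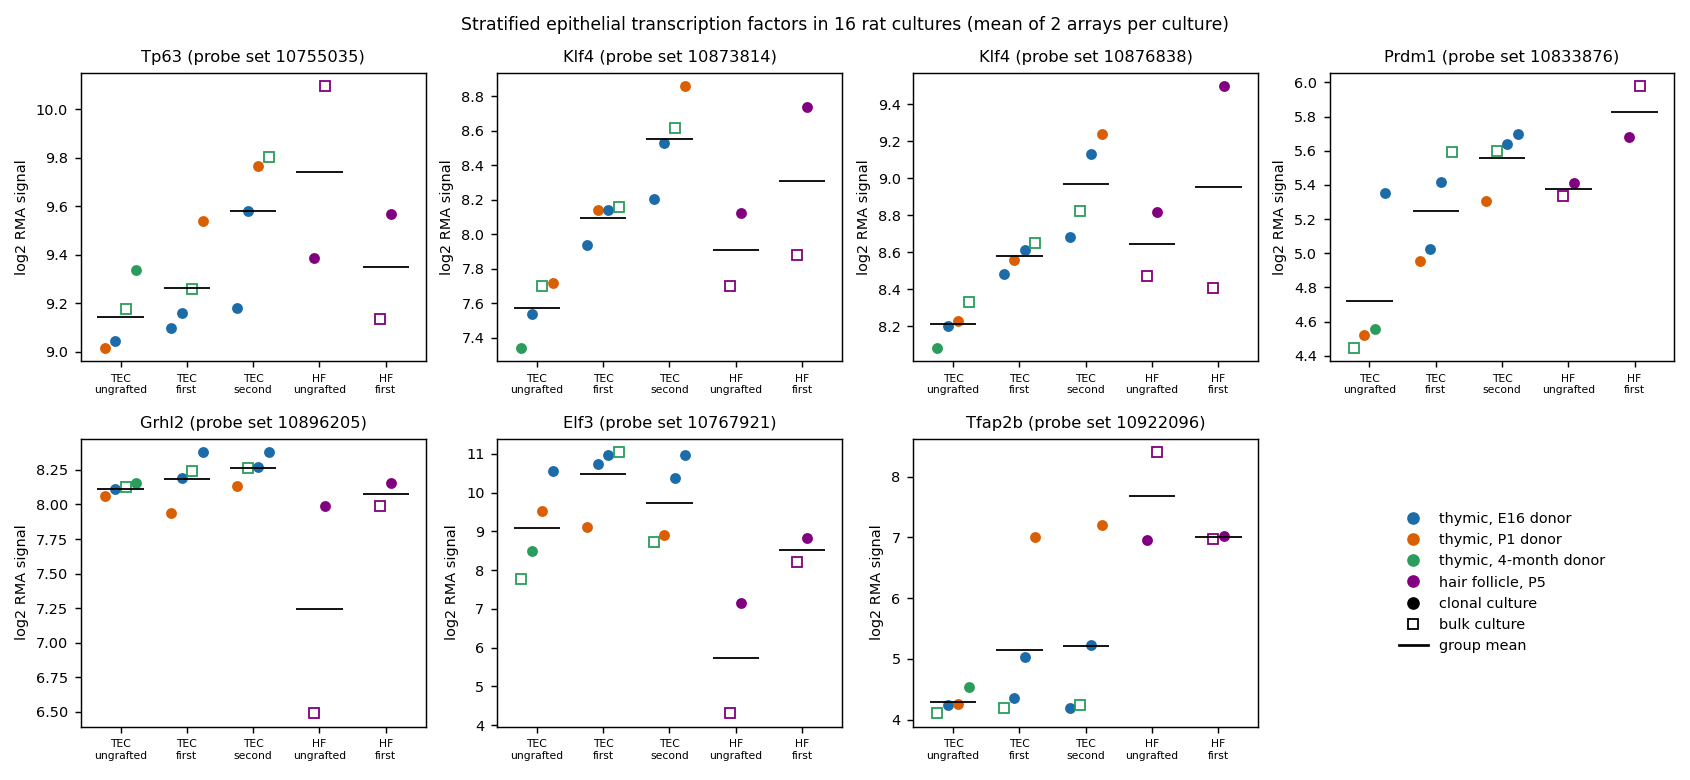
Log2 RMA signal of each probe set (vertical axis) in the 5 groups (horizontal axis), with 1 point per culture, colour for donor stage, open squares for bulk cultures and a line at each group mean. The Klf4 points of the 3 TEC groups do not overlap, and YR219P5_Bulk_V is the lowest point for Grhl2 (6.49) and Elf3 (4.30) and the highest for Tp63 (10.10) and Tfap2b (8.41).

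Klf4 showed the clearest relation to grafting. At probe set 10873814 the ungrafted TEC cultures measured 7.54 (E16 clone), 7.72 (P1 clone), 7.70 (4-month bulk) and 7.34 (4-month clone) on the log2 scale. After a first graft the values were 8.14 and 7.94 (E16), 8.14 (P1) and 8.16 (4 months), and after a second graft 8.53 and 8.20 (E16), 8.86 (P1) and 8.62 (4 months). The 3 TEC groups did not overlap: every first-graft culture exceeded every ungrafted one, and every second-graft culture exceeded every first-graft one. The share of all probe sets with such an order was not counted, so how unusual it is cannot be said. At probe set 10876838 the ungrafted values were 8.20, 8.23, 8.33 and 8.08 in the same order, the first-graft values 8.61, 8.48, 8.56 and 8.65, and the second-graft values 9.13, 8.68, 9.24 and 8.83. The 3 groups again did not overlap, although the lowest second-graft culture, Clone_347, exceeded the highest first-graft one, Clone_907, by only 0.031 here and 0.044 at the first probe set. The arrays of these cultures differed by 0.46 and 0.51 at the first probe set. Neither single step passed: first graft minus ungrafted was 0.52 and 0.37 (limma adjusted p = 0.198 and 0.391), and second minus first graft was 0.46 and 0.39 (both adjusted p = 1.00).

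The second-graft TEC cultures exceeded the ungrafted ones by 0.98 ± 0.18 (SE, n = 4 and 4) at the first Klf4 probe set, a 1.97-fold difference (limma adjusted p = 0.0143). At the second the difference was 0.76 ± 0.19, or 1.69-fold (limma adjusted p = 0.0415). In this comparison 3.86% of all probe sets passed the threshold of an adjusted p under 0.05, and 11.9% had groups that did not overlap. Among the 7 probe sets of the 6 genes 3 passed, all higher after grafting, and 2 had groups that did not overlap, both of Klf4. With both grafted groups pooled as 1 mean, the first Klf4 probe set was higher by 0.75 ± 0.16 (limma adjusted p = 0.0178), while the second, at 0.56 ± 0.16, did not pass (adjusted p = 0.0647). The first lost this call without PRP4mo_bulk (adjusted p = 0.0528) or PRP4mo_Cl09 (0.0787), both ungrafted 4-month cultures. In that comparison 4.83% of all probe sets passed and 4.56% did not overlap, against 2 of the 7 for each. These comparisons share the ungrafted cultures and are not independent. In RNA from a whole culture, more cells with a transcript and more RNA per cell cannot be told apart. The first probe set kept its second-graft call when any single culture was left out, and lost it without the E16 (adjusted p = 0.0727), P1 (0.0635) or 4-month (0.335) cultures and in clonal cultures alone (0.0714). The second lost its call in most omissions of 1 TEC culture, with adjusted p up to 0.116. It also lost the call in 8 of 14 other alternatives, with adjusted p up to 0.409, among them each array centred on its median (0.0686).

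Every grafted TEC culture lay above every ungrafted one at both Klf4 probe sets, so this held within each donor stage too and is no separate support. By stage, the differences of means at the first probe set were 0.66 (E16, 4 grafted against 1), 0.78 (P1, 2 against 1) and 0.87 (4 months, 2 against 2). In HF the clonal values differed more than the bulk ones. At the first probe set the bulk HF culture measured 7.70 before and 7.88 after grafting, and the clonal ones 8.12 and 8.74. At the second the bulk values were 8.47 and 8.41 and the clonal values 8.81 and 9.50. The HF groups overlapped, and the differences of 0.40 ± 0.25 and 0.31 ± 0.27 did not pass the test (limma adjusted p = 0.615 and 0.696). By group mean the order at the first probe set was second-graft TEC, grafted HF, first-graft TEC, ungrafted HF and ungrafted TEC, and each of these neighbours overlapped the next.

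Prdm1 was also higher in TEC after grafting. Its ungrafted TEC values were 5.36 (E16), 4.52 (P1), 4.44 (4-month bulk) and 4.56 (4-month clone). They were 5.42, 5.02, 4.95 and 5.60 after a first graft, and 5.70, 5.64, 5.30 and 5.60 after a second, in the order E16, E16, P1 and 4 months. The E16 clone stood above the other ungrafted cultures, so the groups overlapped, and all signals were low. The difference from ungrafted TEC was 0.84 ± 0.20 after the second graft (limma adjusted p = 0.0335). Over both grafted groups it was 0.68 ± 0.17 (limma adjusted p = 0.0387). The ungrafted P1 and 4-month values, from 4.44 to 4.56, lie close to the level not taken as above background. These log2 differences may therefore understate the true ones, and no fold is given. The 2 arrays differed by 0.70 in Clone_347 and by 0.51 in PRP4mo_Cl09. Grafted and ungrafted means differed by 1.10 in cultures of 4-month origin and 0.61 in those of P1 origin, but by 0.09 in those of E16 origin. Both calls were lost without any 1 of the other ungrafted cultures, with adjusted p between 0.0806 and 0.150. They were also lost without any 1 of the second-graft cultures Clone_287, Clone_347 and Clone_354 (0.0562 to 0.0791), and the grafted call without Clone_217 (0.0737) or Clone_907 (0.0578). Without the 4-month cultures the second-graft difference was 0.61 (adjusted p = 0.480).

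In HF cultures Prdm1 measured 5.33 (bulk) and 5.41 (clonal) before grafting and 5.98 and 5.68 after it. Both grafted values exceeded both ungrafted ones, but the difference of 0.45 ± 0.28 did not pass (limma adjusted p = 0.603). The share of all probe sets without overlap between these small groups was not counted. The value of 5.98 is that of YR219P5_RC, which was highest of the 16 cultures at 30.8% of all probe sets. Over both states TEC lay below HF by 0.62 ± 0.17, just outside the threshold (adjusted p = 0.0573). Without the ungrafted E16 clone it passed (-0.72, adjusted p = 0.0149). In order of mean the groups ran from grafted HF through second-graft TEC, ungrafted HF and first-graft TEC to ungrafted TEC, with overlap between each pair of neighbours.

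The promoter windows of Prdm1 and Elf3 are shown because these genes differed between groups and because no annotated gene lies in the window. They run from 250 to 21 bases before the annotated start in the GRCr8 rat assembly of RefSeq, both on the minus strand, at chr20:49564109-49564338 for Prdm1 and chr13:49247107-49247336 for Elf3. Capitals mark exact matches, on either strand, to GCCNNNGGC (AP-2), CACCC (Krüppel-like), AACCGGTT (grainyhead-like), GGAA (ETS) or GAAAG (Prdm1).
Prdm1: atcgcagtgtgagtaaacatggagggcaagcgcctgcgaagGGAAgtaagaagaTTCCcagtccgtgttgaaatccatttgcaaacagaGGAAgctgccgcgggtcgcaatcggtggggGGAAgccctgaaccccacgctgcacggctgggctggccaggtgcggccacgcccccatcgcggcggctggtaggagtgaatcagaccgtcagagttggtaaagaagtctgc
Elf3: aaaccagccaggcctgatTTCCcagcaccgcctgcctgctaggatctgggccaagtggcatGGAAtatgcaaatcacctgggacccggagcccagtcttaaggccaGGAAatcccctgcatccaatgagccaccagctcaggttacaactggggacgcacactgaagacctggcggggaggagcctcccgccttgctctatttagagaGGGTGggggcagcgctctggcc
The Prdm1 window held 4 ETS matches and the Elf3 window 3 ETS matches and 1 Krüppel-like match. Of 33469 promoter windows of this length, 91.8% held the ETS letters and 46.4% the Krüppel-like ones. The AP-2, grainyhead-like and Prdm1 letters, present in 11.5%, 0.143% and 48.9% of windows, were in neither. RefSeq promoters were matched for 4 of the 6 genes. In the other 2 matched windows, which lie inside annotated genes, Klf4 had 1 ETS match and Tp63 had 2 ETS matches, 1 Krüppel-like match and 1 Prdm1 match. A match describes letters only.

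**Figure D2:**
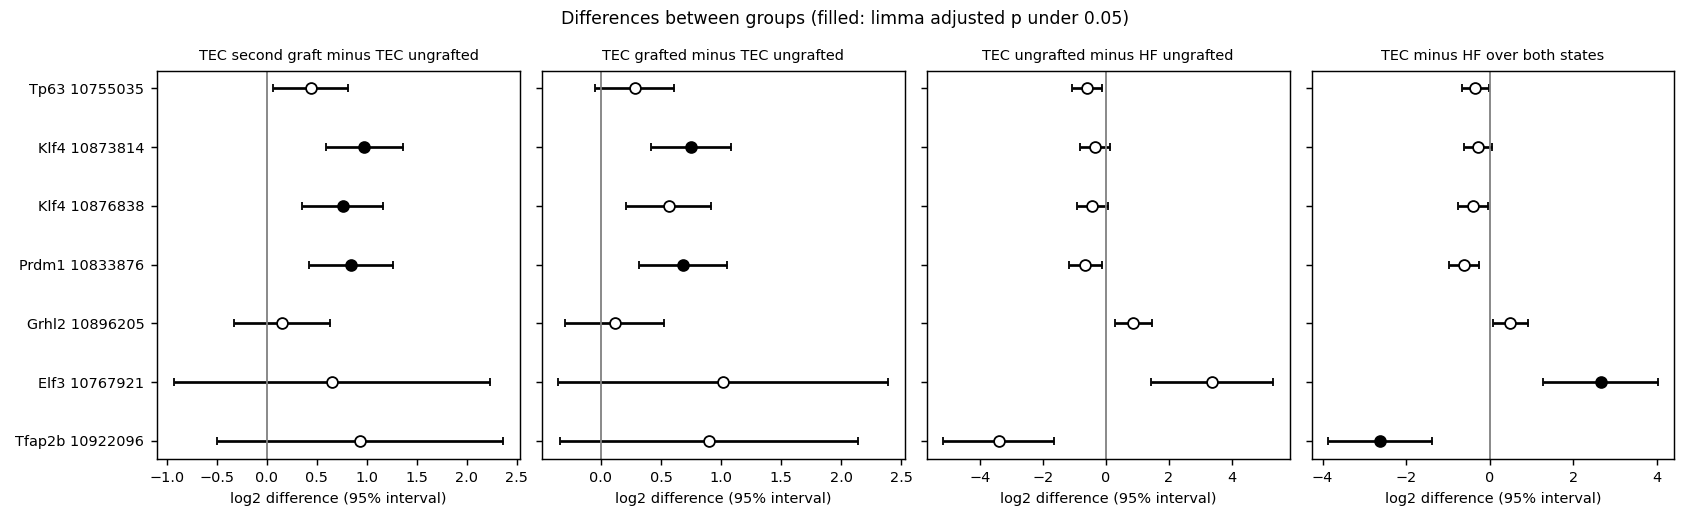
Log2 differences (horizontal axis) of the 7 probe sets in 4 comparisons, with 95% intervals from limma and filled points for an adjusted p under 0.05. Klf4 10873814 and Prdm1 pass in both graft comparisons, Klf4 10876838 passes after the second graft only, and Elf3 (2.65) and Tfap2b (-2.63) pass in TEC minus HF over both states.

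Elf3 and Tfap2b varied most, with standard deviations over the 16 cultures above those of 99.8% and 99.6% of all probe sets. Elf3 measured 10.56 (E16), 9.52 (P1), 7.77 (4-month bulk) and 8.50 (4-month clone) in ungrafted TEC. It measured 10.75, 10.97, 9.10 and 11.05 after a first graft, and 10.36, 10.96, 8.91 and 8.72 after a second. In HF the values were 4.30 (bulk) and 7.14 (clonal) before grafting and 8.22 and 8.84 after it. Every ungrafted TEC culture exceeded both ungrafted HF cultures, whereas grafted HF cultures overlapped the ungrafted TEC range. By mean the groups ran from first-graft TEC (10.47) through second-graft (9.74) and ungrafted TEC (9.09) and grafted HF (8.53) to ungrafted HF (5.72), and only the last 2 did not overlap. These HF groups hold 2 cultures each, among them YR219P5_RC and YR219P5_Bulk_V. The share of all probe sets without overlap between them was not counted.

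Before grafting the TEC minus HF difference of Elf3 was 3.36 ± 0.90 and did not pass (limma adjusted p = 0.0866). It was 1.94 (adjusted p = 0.681) without YR219P5_Bulk_V, whose arrays read 4.76 and 3.85, near the level not taken as above background, and 4.78 (0.0269) without YR219P5cl7. Over both states, with second-graft TEC left out, TEC exceeded HF by 2.65 ± 0.64 (limma adjusted p = 0.0365). In these comparisons 1.55% and 4.17% of all probe sets passed, and 25.8% and 4.69% had groups that did not overlap. Of the 7 probe sets 0 and 2 passed, 5 and 0 had groups that did not overlap, and 5 and 6 had an unadjusted p under 0.05. Over all probe sets 2066 and 3541 had an unadjusted p under 0.05. Without YR219P5_Bulk_V the Elf3 difference over both states was 1.94 (adjusted p = 0.152), and without YR219P5_RC it was 2.50 (0.154). Omitting any 1 of 9 cultures ended the call, with adjusted p from 0.0516 to 0.154: these 2, Clone_54, PRE16cl11_VII, PRP1cl11_VII, PRP4mo_Cl09, Clone_217, Clone_218 and Clone_907.

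Among TEC cultures Elf3 was high in all 5 of E16 origin, between 10.36 and 10.97. The 3 P1 cultures lay between 8.91 and 9.52, below all the E16 ones. The share of all probe sets without overlap between these stages was not counted. The 4-month cultures lay between 7.77 and 8.72, except the first-graft bulk culture Clone_907 at 11.05. With transplantation state in the model, Elf3 differed from E16 by -1.46 ± 0.50 in P1 cultures (limma adjusted p = 0.118) and by -1.52 ± 0.47 in 4-month cultures (0.314), so neither difference passed. Without Clone_907 the 4-month difference was -2.33 and passed (adjusted p = 0.0207), and the P1 difference, at -1.53, passed too (0.00990). Of all probe sets 6.08% passed for P1 against E16 and 0.0914% for 4 months against E16, with 0 of the 7 in either. Unadjusted p was under 0.05 for 3 and 2 of the 7, and for 3395 and 1704 of all probe sets.

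Tfap2b ran the other way between the tissues. Ungrafted TEC measured 4.24 (E16), 4.25 (P1), 4.10 (4-month bulk) and 4.53 (4-month clone), close to the level not taken as above background. HF measured 8.41 (bulk) and 6.96 (clonal) before grafting and 6.98 and 7.02 after it. All 4 HF cultures therefore exceeded all 4 ungrafted TEC cultures. The share of all probe sets with this order was not counted, and Klf4 10876838 had it too. By mean of Tfap2b, ungrafted HF (7.68) came first, then grafted HF (7.00), second-graft TEC (5.22), first-graft TEC (5.15) and ungrafted TEC (4.28). Each group overlapped the next. The difference before grafting was -3.40 ± 0.82 (limma adjusted p = 0.0557) and did not pass, although it passed when Clone_57 (0.0279) or Clone_194 (0.0233) was left out of the fit. Over both states it was -2.63 ± 0.58 (limma adjusted p = 0.0262). Because most TEC values lie near background, these log2 differences may understate the true ones, and no fold is given. Without YR219P5_Bulk_V this was -2.27 (adjusted p = 0.109), and without YR219P5_RC or the grafted clone Clone_54 the adjusted p was 0.104 and 0.0635.

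After grafting, Tfap2b reached the HF range in the TEC cultures of P1 origin, Clone_57 (7.00, first graft) and Clone_194 (7.21, second graft). The grafted cultures of E16 origin measured 5.03 and 4.36 after the first graft and 5.22 and 4.19 after the second. Those of 4-month origin measured 4.20 and 4.24. The mean of the grafted P1-derived cultures was 2.86 above the single ungrafted P1 clone, a lower bound if that clone is at background. The remaining grafted TEC cultures lay between 4.19 and 5.22. Of these, the E16-derived Clone_217 (5.03) and Clone_287 (5.22) also exceeded every ungrafted TEC culture, the highest of which was 4.53. Each stage and state holds 1 or 2 cultures, and whether the change differs between stages was not tested. P1 against E16 gave 1.66 ± 0.50 over all states (limma adjusted p = 0.0812), and 2.47 without the ungrafted P1 clone (0.00800). In TEC as a whole the grafted minus ungrafted difference was 0.90 ± 0.58 (limma adjusted p = 0.415), and 0.59 without Clone_57 or 0.57 without Clone_194.

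**Figure D3:**
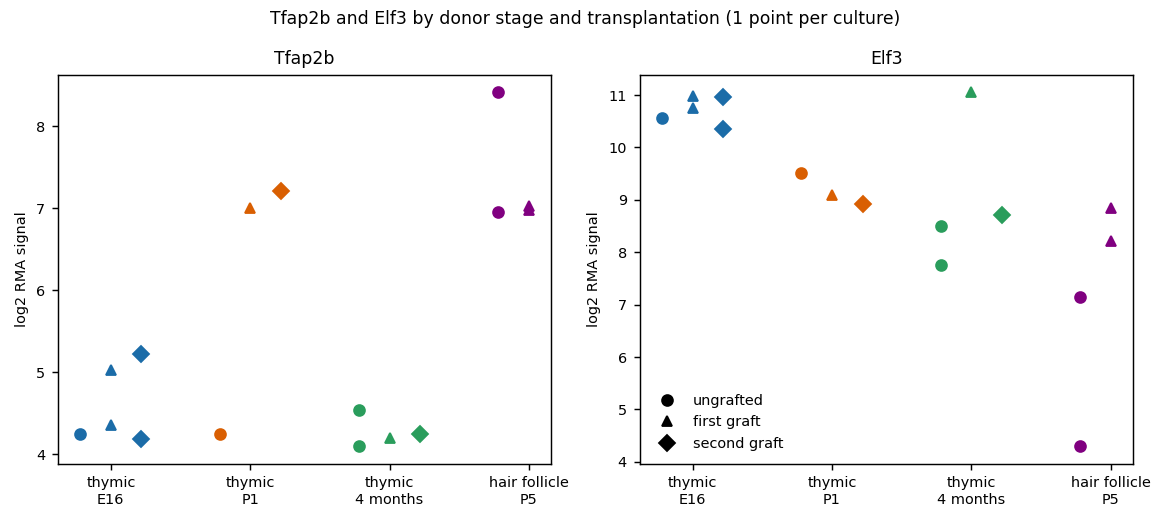
Log2 RMA signal of Tfap2b (left) and Elf3 (right) by donor stage (horizontal axis), with 1 point per culture and symbols for ungrafted, first-graft and second-graft cultures. The grafted P1-derived TEC cultures sit at 7.00 and 7.21 for Tfap2b, near the HF cultures, and the E16-derived cultures lie between 10.36 and 10.97 for Elf3.

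Grhl2 was nearly level in TEC. It measured 8.11, 8.06, 8.13 and 8.15 in ungrafted cultures, 8.38, 8.19, 7.94 and 8.25 after a first graft and 8.38, 8.27, 8.13 and 8.27 after a second. The 3 TEC groups overlapped, and second-graft minus ungrafted was 0.15 with a 95% interval from -0.33 to 0.63. The HF values were 6.49 (bulk) and 7.99 (clonal) before grafting and 7.99 and 8.16 after it. YR219P5_Bulk_V alone lay outside the range of the other 15 cultures, which ran from 7.94 to 8.38. The TEC minus HF difference before grafting, 0.87 ± 0.27, did not pass (limma adjusted p = 0.147). It was 0.12 (adjusted p = 0.938) without YR219P5_Bulk_V. Without YR219P5cl7, which leaves YR219P5_Bulk_V alone in its group and assumed to vary like the other groups, it was 1.62 and passed (7.67e-05).

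The low Grhl2 of YR219P5_Bulk_V went with low levels of genes that grainyhead-like factors are known to maintain. Of 14 such genes, 13 had their lowest value of the 16 cultures in it, whereas 11.1% of all probe sets did. Cdh1, which encodes E-cadherin, measured 9.19 there and at least 10.44 elsewhere. Epcam measured 7.64 against at least 9.73, the tight-junction gene Cldn4 8.31 against at least 11.08, and the splicing regulator Esrp1 8.18 against at least 9.70. Cldn7 was the exception, at 4.50 within the range of the others. Grhl3, a related factor, was lowest there as well (6.86, at least 8.24 elsewhere), as was Ovol1 (5.38, at least 6.33). Other lists, described below, also had lowest values in YR219P5_Bulk_V. They made up 7 of 24 probe sets of related factors, 6 of 21 of epithelial transcription factors and 4 of 13 of differentiation genes. For p63 targets it was 1 of 13. Whether the low levels relate to Grhl2 was not tested.

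In the same culture 4 of 20 fibroblast and feeder markers had their highest value and 0 their lowest, whereas 7.99% of all probe sets were highest and 11.1% lowest in it. They were Vim (11.81, at most 11.38 elsewhere), Tagln (9.27, at most 8.26), Thy1 (6.77, at most 6.64) and Fbn1 (5.93, at most 4.81). Krt14 was 13.10 there. High feeder markers were not particular to YR219P5_Bulk_V. The mean of the 20 markers was 6.85 in it and 6.87 in the ungrafted TEC culture PRP4mo_bulk, where Grhl2 was 8.13. Col1a1, Col1a2, Col3a1, Sparc, S100a4, Twist1, Fn1 and Acta2 were highest in PRP4mo_bulk, as were 7.72% of all probe sets. The part of other cells in the values of either culture was not tested.

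**Figure D4:**
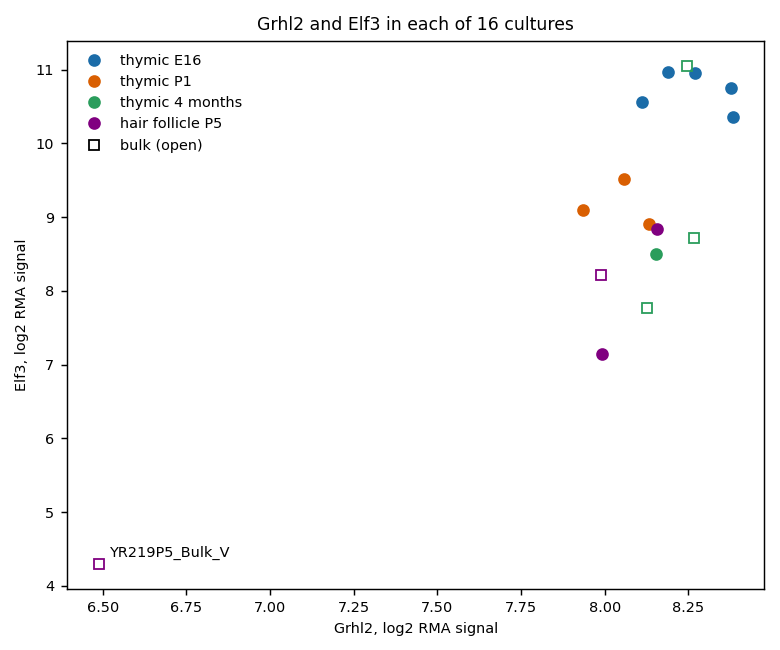
Log2 RMA signal of Elf3 (vertical axis) against Grhl2 (horizontal axis) in the 16 cultures, with colours for tissue and donor stage and open squares for bulk cultures. YR219P5_Bulk_V is far below the other cultures on both axes, and Pearson's r is 0.81 with it and 0.60 without it.

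Tp63 was measured by 1 probe set, so its isoforms were not separated. Ungrafted TEC measured 9.04, 9.02, 9.18 and 9.34, first-graft TEC 9.16, 9.10, 9.54 and 9.26, and second-graft TEC 9.58, 9.18, 9.77 and 9.80. The second-graft cultures tended higher but overlapped the ungrafted ones, and the difference of 0.44 ± 0.18 did not pass (limma adjusted p = 0.178). In HF it measured 10.10 (bulk) and 9.39 (clonal) before grafting and 9.13 and 9.57 after it. Both ungrafted HF cultures exceeded all ungrafted TEC cultures, by a mean of 0.60 ± 0.22 (limma adjusted p = 0.219). The TEC minus HF difference was -0.24 without YR219P5_Bulk_V and -0.95 without YR219P5cl7, and neither passed (adjusted p = 0.910 and 0.0614).

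In the remaining comparisons 0 of the 7 probe sets passed. First-graft against ungrafted TEC called 0.516% of all probe sets, and the members' limma adjusted p ran from 0.198 to 0.924. Second-graft against first-graft TEC and grafted against ungrafted HF each called 0%, with 532 and 1354 probe sets at an unadjusted p under 0.05 and 1 and 2 of the 7. The median of all probe sets was itself 0.10 higher in grafted than in ungrafted HF. First-graft and second-graft TEC against grafted HF called 0.0718% and 0.0457%. In these the differences were 1.94 and 1.21 for Elf3 and -1.86 and -1.79 for Tfap2b, and they share the grafted HF cultures. The interaction of tissue and first graft also called 0%, with 866 probe sets and 0 of the 7 at an unadjusted p under 0.05, so no member was shown to respond differently in TEC and HF.

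Related factors were counted from a list of 23 measured genes of the same families. After the second graft 3 were higher in TEC and 1 lower, where 3.86% of all probe sets passed. Klf13 rose by 1.05 (limma adjusted p = 0.00838), Klf7 by 0.66 (0.0369) and the AP-2 factor Tfap2e by 0.65 (0.0410), and Klf2 fell by 0.67 (0.0101). The list's median difference was 0.27, against 0.01 over all probe sets. Before grafting Klf13 was lower in TEC than in HF by 0.89 (limma adjusted p = 0.0472) and Klf2 higher by 0.64 (0.0414). With both grafted groups pooled, 4 of the 23 were higher than in ungrafted TEC and 1 lower, beside 4.83% of all probe sets.

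Of 20 epithelial transcription factors on another list, which shares 6 genes with the families, 1 rose and 1 fell after the second graft, beside 3.86% of all probe sets. Gata3, which acts in the inner root sheath of hair and in epidermis, rose by 1.82 (limma adjusted p = 0.0187), and the AP-1 subunit Fosl1 fell by 0.91 (0.0156). Gata3 was also lower in ungrafted TEC than in ungrafted HF, by 2.06 (0.0395). With both grafted groups pooled, 1 of the 20 was higher than in ungrafted TEC and 1 lower, beside 4.83% of all probe sets.

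Among 13 measured differentiation genes, 1 rose and 1 fell after the second graft, with the same 3.86% over all probe sets. Lgals7, which encodes galectin-7, a lectin of stratified epithelia, rose from a mean of 5.10 to 10.41 (limma adjusted p = 0.00882), and Lcn2 fell by 0.72 (0.0305). Both grafted groups pooled against ungrafted TEC also gave 1 higher and 1 lower, beside 4.83% of all probe sets. Ungrafted TEC against HF gave 1 higher and 1 lower, beside 1.55%. Of 13 known p63 targets and 14 grainyhead-like targets, 0 passed after the second graft, with median differences of 0.18 and 0.06. In the other 2 comparisons 0 of these targets passed as well. Over both states 1 grainyhead-like target, the protease inhibitor Spint2, was higher in TEC than in HF, by 0.53 (limma adjusted p = 0.0392). This is 1 of 14, beside 4.17% of all probe sets.

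Fibroblast and feeder markers moved with the graft comparison. The mean of the 20 markers lay between 6.46 and 6.87 in ungrafted TEC, 5.96 and 6.28 after a first graft and 5.90 and 6.03 after a second, and S100a4, Twist1 and Loxl1 fell. The epithelial marker list moved too, taken as the mean of 8 probe sets for 5 genes. It lay between 9.28 and 9.93 in ungrafted TEC, 7.97 and 9.73 after a first graft and 7.96 and 9.36 after a second. Its median difference after the second graft was -0.92, and 1 of the 5 genes, Krt8, fell. Most of these probe sets were of the keratins Krt8 and Krt18. In every TEC culture Krt14 was at least 12.95, Cdh1 at least 10.44 and Epcam at least 9.73. Cd68, given above, was highest in a second-graft culture. The part of these markers in the Klf4 and Prdm1 differences was not tested.

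The genes whose levels tracked each member most closely were found by Pearson's r over the 16 cultures, among probe sets with a standard deviation of at least 0.3. The cultures share groups, so r is a description. For both Klf4 probe sets they were Muc13 (r = 0.92 and 0.93), Pafah2 (0.89 and 0.88) and Socs3 (0.87 and 0.85). For Prdm1 they were Spop, Cnep1r1 and Klk11 (each 0.87), and for Tp63 Ppp2r3a (0.82), Evl (0.81) and Marcks (0.81). For Grhl2 they were Mpzl2 (0.98), Cldn1 (0.96) and Rab25 (0.96), and Cldn1, a tight-junction gene, ranged from 6.60 to 11.41. Grhl2 was 6.49 in YR219P5_Bulk_V and at least 7.94 elsewhere, and Rab25 was 8.66 there and at least 10.41 elsewhere. These r may therefore rest largely on that culture, and they were not computed without it. For Elf3 they were Spint1 (0.95), Ttc22 (0.95) and Spint2 (0.94). For Tfap2b they were Slc1a3 (0.92), Adamts3 (0.92) and Bhlhe41 (0.91), and Bhlhe41 averaged 3.85 in ungrafted TEC and 8.09 in ungrafted HF. Among the members themselves the highest r were 0.94, between the Klf4 probe sets, and 0.81, between Grhl2 and Elf3. Without YR219P5_Bulk_V the r of Grhl2 and Elf3 was 0.60, below the 0.77 of Tp63 and Klf4 10873814.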

How the data were processed

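RNA from 16 cultures (32 arrays, 2 per culture) was measured. Per the labels, 100 ng of total RNA was amplified by Affymetrix's whole transcript protocol. The deposited values are log2 probe set signals. The submitters' processing notes name RMA and Affymetrix Expression Console, without versions. Of 29215 probe sets, 15316 with exactly 1 gene symbol were tested, with no filter on level. The arrays of a culture were averaged, and the culture was the unit. Their number limits the precision of the tests. Groups were compared with limma 3.58.1 (R 4.3.3, lmFit and eBayes, 1 coefficient per group, Benjamini-Hochberg adjustment over all 15316 probe sets, threshold 0.05). Donor stages were compared in the 12 TEC cultures with state in the model. The code was tested on simulated data. The members and lists were chosen with earlier results of these data known. All member probe sets are described, with the 3 most correlated genes of each. The lists of factors, targets and differentiation genes were examined in 3 comparisons (ungrafted TEC against HF, second-graft and grafted against ungrafted TEC). Per list, at most 4 genes past the threshold are named for the second graft and for ungrafted TEC against HF. Genes of the grafted comparison, and differentiation genes in ungrafted TEC against HF, are only counted. Genes of YR219P5_Bulk_V, Spint2, Cd68, Cd79b and Ptprc were named after their values were seen. Alternatives covered normalization, the unit, samples in the fit, donor stage, a dim filter, probe sets tested, the variance model and each culture left out. Leaving out the TEC cultures of a donor stage was added after seeing the data.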

Additional observations from a re-analysis of the deposited data

Results flagged for a closer look

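In the groups of 4 cultures, 3 of 21 checked for a member had a culture far from the others by Dixon's criterion, and chance gives about 1 in 20. Klf4 (10873814) measured 7.94 in the E16-derived first-graft culture Clone_218, below 8.14 in the nearest of the others. Prdm1 measured 5.36 in the ungrafted E16 clone PRE16cl11_VII, above 4.56 in the nearest. Elf3 measured 9.10 in the P1-derived first-graft culture Clone_57, below 10.75 in the nearest.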

How the results depend on the processing

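Of the recomputed values, 2271 kept their direction and their side of the threshold, 76 lost it, 35 gained it and 54 turned sign. The few cultures limit what can be shown, and no cause of a change was tested. Signals near background, for Tfap2b in most TEC cultures and for Prdm1 in most ungrafted TEC cultures, are a further limit. Of the 7 probe sets, 0 passed in clonal cultures alone in the second-graft, grafted and TEC minus HF (both states) comparisons, and 1 in P1 against E16. Leaving out the E16, P1 or 4-month TEC cultures, which was chosen after seeing the data, left 0 in both graft comparisons, and without the E16 or 4-month ones 0 over both states. Ungrafted TEC against HF gave 1 without the P1 cultures, with the dim filter, with array 2 alone or with only the groups compared. P1 against E16 gave 1 without the 4-month cultures or with only the groups compared. Array 1 alone gave 1 in the grafted comparison and array 2 alone gave 0 there and 1 for the second graft. With each culture left out in turn the count ran from 1 to 3 for the second graft, from 0 to 3 for grafted TEC and for both states, from 0 to 2 for ungrafted TEC against HF, and from 0 to 1 for the HF graft, the interaction, 4 months against E16 and P1 against E16.

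With arrays as the unit, culture as a random block and array number as the replicate block, the count was 4 for ungrafted TEC against HF, 5 over both states, 1 for 4 months against E16, 2 for P1 against E16, 4 for the second graft and 3 for grafted TEC. Array numbers pair no cultures across groups, and p-values over arrays of the same cultures can be too small.

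Signs turned mostly where the difference was near 0. First-graft minus ungrafted TEC became -0.022 for Grhl2 without the E16 cultures and -0.014 for Tp63 without the P1 cultures. Second-graft minus first-graft TEC became -0.0021 for Tfap2b with array 2 alone, and with single cultures left out ran from -0.59 to 0.69 for Tfap2b and from -0.0075 to 0.14 for Grhl2. The HF graft difference became 0.18 for Tp63 and 0.067 for Tfap2b in clonal cultures alone. With single cultures left out it ran from -1.41 to 0.046 for Tfap2b, from -0.032 to 0.83 for Klf4 10873814 and from -0.24 to 0.85 for Klf4 10876838. First-graft TEC minus grafted HF for Tp63 became 0.050 with each array centred on its median and 0.051 without the E16 cultures. With single cultures left out it ran from -0.30 to 0.13 for Tp63, and from -0.64 to 0.22 and from -0.92 to 0.17 for the Klf4 probe sets. Second-graft TEC minus grafted HF in clonal cultures became -0.058 for Tp63 and -0.21 and -0.48 for Klf4. For Klf4 10876838 it became -0.0077 with array 2 alone and -0.072 without the P1 cultures. With single cultures left out the Klf4 probe sets ran from -0.19 to 0.67 and from -0.53 to 0.56.

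The interaction became -0.023 for Klf4 10873814 and -0.21 for Prdm1 with array 1 alone, and -0.26 for Prdm1 without the 4-month cultures. In clonal cultures it became -0.045 for Tp63 and -0.075 and -0.30 for Klf4. With single cultures left out it ran from -0.075 to 0.29 for Prdm1, from -2.84 to 0.0020 for Elf3, and from -0.30 to 0.55 and from -0.49 to 0.60 for Klf4. The 4-month minus E16 difference became -0.044 for Klf4 10876838 with array 1 alone and 0.036 for Grhl2 with array 2 alone. In clonal cultures it became -0.16 and -0.065 for Klf4 and 1.16 for Tfap2b. With single cultures left out it ran from -0.41 to 0.055 for Prdm1, from -0.29 to 0.22 for Tfap2b and from -0.045 to 0.097 for Klf4 10876838.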
